A study of Sus scrofa with 36 samples.

Results

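The natriuretic peptide genes NPPA and NPPB, and MME, the gene of the peptidase neprilysin, were followed in whole hearts of newborn pigs. Members were taken by name from a table of read counts per gene. Among its 9815 genes, 2 carried a name on the list, NPPB and MME, while NPPA was not analysed here as a row of its own. The row named NPPB nevertheless covers the positions of both peptide genes, as described below, and is called the NPPB row.

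NPPA encodes atrial natriuretic peptide and NPPB encodes B-type natriuretic peptide, hormones that cardiomyocytes release when the heart wall is stretched. Proprotein convertases cut the precursors, and the active peptides bind the guanylyl cyclase receptor encoded by NPR1, raise cyclic GMP, relax vessels and promote the loss of salt and water. They are removed by the clearance receptor encoded by NPR3 and by neprilysin, a zinc peptidase on the cell surface that also cuts bradykinin, adrenomedullin, endothelin and angiotensin peptides. Both peptide genes are active in the fetal ventricle, and in the adult heart NPPA is mainly an atrial gene unless the ventricle is under load.

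Hearts came from domestic Yorkshire pigs of both sexes, untreated and fed normally, at postnatal days 1, 3, 7 and 28 (P1, P3, P7 and P28). The gene libraries were total RNA after removal of ribosomal RNA, from 3 pigs at each age and thus 12 pigs in all, and each age was a different set of animals. Pigs are named here by the numbers 4, 5 and 6 that the columns carry. The labels give the tissue as heart without the chamber, so the atrial part of a sample was not known. In bulk tissue, fewer cells of a type and less RNA per cell cannot be told apart.

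The table held genes of chromosomes 1, 2, 6 and 13, with totals between 8887176 and 14883849 counts per library. Levels are given as CPM, the count scaled to the total of this table by the TMM method and are therefore relative to these chromosomes. Between 7.09% and 19.7% of the counts were on genes named Metazoa_SRP, which are small cytoplasmic RNAs, and the share was 19.5% in pig 4 of P1. Summed CPM of the 8 measured genes of a list of 15 cardiomyocyte markers lay between 68308 and 96123 in the 12 libraries, so cardiomyocyte RNA was abundant in each. The quasi-likelihood test of edgeR compared the ages on 5526 genes in a single fit, and a gene is called at a Benjamini-Hochberg adjusted p under 0.05. The p-values rest on the spread between animals of the same age, estimated for each gene over all 4 ages together.

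The NPPB row (ENSSSCG00000003431) lies on chromosome 6 from 71919495 to 71932254 and spans 12760 bases, with 1969 bases of exons. RefSeq places 2 coding genes, NPPA and NPPB, wholly inside this interval, so reads of the 2 neighbouring peptide genes could not be told apart and every value of the row may contain both. Positions in the table were compared with RefSeq for assembly Sscrofa11.1, and 4332 of 4338 protein-coding genes (99.86%) overlapped the position of the same symbol there, although the labels name Sscrofa10.2. MME (ENSSSCG00000011723) lies on chromosome 13 from 95019081 to 95126045, spans 106965 bases and has 7437 bases of exons. No other row of the table overlapped either member, but the strand setting of the counting was not given in the sources used here.

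MME, the neprilysin gene, was higher in hearts of older pigs. At P1 the 3 hearts had 13.7, 20.4 and 14.1 CPM. At P3 the levels were 15.8, 21.4 and 23.8 CPM. By P7 they were 54.6, 38.1 and 42.4 CPM, above every heart of the younger ages. At P28 pigs 4 and 5 had 88.2 and 85.5 CPM, whereas pig 6 had 46.6 CPM and lay within the range of P7.

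Mean MME levels were 16.0 ± 3.76 CPM at P1, 20.3 ± 4.09 at P3, 45.1 ± 8.55 at P7 and 73.4 ± 23.3 at P28 (SD, n = 3 each). These values rest on 171 to 1099 counts per library. From P1 to P28, MME rose by 2.19 on the log2 scale (SE 0.27, 95% interval 1.61 to 2.77, adjusted p = 4.11e-04, edgeR), a 4.57-fold difference. In this comparison 15.3% of all genes were called, and 7.38% were called higher at P28.

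The rise was also called from P1 to P7, at 1.49 (SE 0.26, adjusted p = 0.0157, edgeR), where 2.01% of genes were called and 1.47% were called higher. From P3 to P28 it was 1.85 (SE 0.27, adjusted p = 0.00137, edgeR), with 16.5% of genes called and 7.98% called higher. From P3 to P7 the difference was 1.15 (SE 0.26, adjusted p = 0.0443, edgeR), against 2.21% of genes called and 1.61% called higher. In each of these 4 pairs all 3 older hearts lay above all 3 younger hearts, and such a gap between ages, in either direction, was found in 30.6% of all genes from P1 to P7, 44.4% from P1 to P28, 22.9% from P3 to P7 and 32% from P3 to P28. The call from P3 to P7 was the least secure, since the adjusted p ranged from 0.0304 to 0.139 when each library was left out in turn and stayed under 0.05 in 2 of 12 such fits. The call from P1 to P7 was kept in 8 of 12 fits, and was lost without pig 4 or pig 6 of P1 and without pig 4 or pig 6 of P7, at adjusted p up to 0.0839.

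Neighbouring ages at either end of the order were not called apart for MME. Between P1 and P3 the MME difference was 0.34 (SE 0.26, adjusted p = 0.526, edgeR), in a comparison with 0.0543% of genes called. Between P7 and P28 it was 0.71 (SE 0.26, 95% interval 0.15 to 1.26, adjusted p = 0.0710, edgeR), where 18.8% of genes were called. This interval excludes 0 and the pair passed the study's thresholds given below, so that it missed the adjusted threshold only. Without pig 6 of P28 the difference was 0.95 with an adjusted p of 0.0207 (edgeR). Across all 4 ages the test of an age effect on MME gave F = 30.8 (adjusted p = 5.66e-04, edgeR), and 21.4% of genes passed that test.

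**Figure D1:**
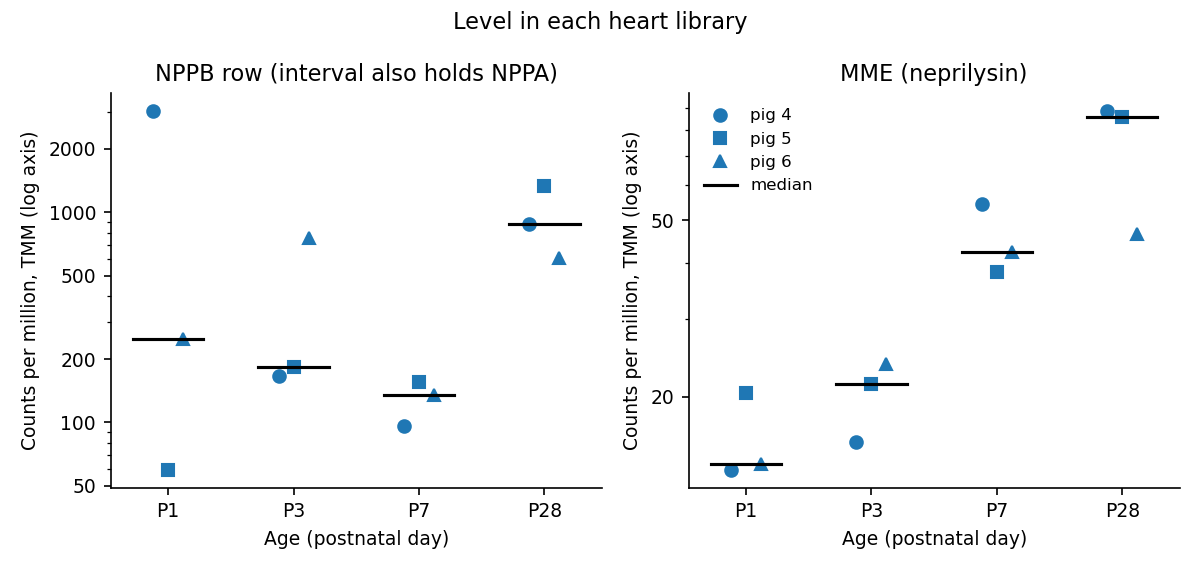
TMM-scaled CPM (log axis) of the NPPB row and of MME in each of the 12 heart libraries, by postnatal day, with one symbol per pig number and a line at the median of each age. MME lies between 13.7 and 23.8 CPM at P1 and P3 and between 38.1 and 88.2 CPM at P7 and P28, while the NPPB row reaches from 59.5 to 3015 CPM among the P1 pigs alone.

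The NPPB row, which covers the peptide hormone genes, varied widely among pigs of one age, and most at P1. At P1, pig 4 had 3015 CPM, pig 5 had 59.5 CPM and pig 6 had 250.7 CPM, so that both the highest and the lowest level of all 12 hearts were found on the first day. The P3 hearts had 167, 183 and 757 CPM. At P7 the levels were 95.9, 156 and 135 CPM, all below the P3 hearts. The P28 hearts had 882, 1326 and 603 CPM, all above those of P7.

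The ratio of the highest to the lowest pig was 50.7 at P1, 4.53 at P3, 1.63 at P7 and 2.20 at P28. Mean levels were 1108 ± 1654 CPM at P1, 369 ± 336 at P3, 129 ± 30.5 at P7 and 937 ± 364 at P28 (SD, n = 3 each). These levels rest on 826 to 40398 counts per library. The biological coefficient of variation that edgeR estimated between pigs of an age was 78.2% for the NPPB row and 22.8% for MME. That dispersion was higher than the one of 99.4% of the genes tested, against 63.8% for MME. The SD of log2 CPM within ages was 1.59, which ranked 13 of 5526 genes, whereas the median gene had 0.27 and MME, at 0.36, ranked 1836.

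None of the 6 age comparisons of the NPPB row was called by edgeR, and 2 had an unadjusted p under 0.05. With DESeq2's test, P7 against P28 was called (2.86, adjusted p = 0.0348). The largest differences were that from P1 to P7, at -3.10 (SE 1.07, 95% interval -5.41 to -0.79, adjusted p = 0.151, edgeR), and that from P7 to P28, at 2.86 (SE 1.06, 95% interval 0.57 to 5.15, adjusted p = 0.0770, edgeR). At the thresholds the study used, which ask for a raw p up to 0.05 with a log2 change of more than 0.5 either way, the row would count as lower at P7 than at P1 and higher at P28 than at P7, where 11.7% and 25.1% of all genes passed. The 3 hearts of P7 and the 3 of P28 did not overlap, which held for 47% of all genes. The P3 and P7 hearts did not overlap either, as in 22.9% of genes, but the difference of -1.52 had an adjusted p of 0.436 (edgeR).

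P1 and P28 could not be placed in an order. The difference was -0.24 (SE 0.98, adjusted p = 0.892, edgeR) and its 95% interval of -2.37 to 1.89 includes changes of several fold in both directions. Without pig 4 of P1, the NPPB row was higher at P28 by 2.59 on the log2 scale (adjusted p = 0.0399, edgeR). Leaving out this pig also turned the difference from P1 to P3 from -1.59 (adjusted p = 0.455) to 1.26 (adjusted p = 0.513), and reduced that from P1 to P7 from -3.10 to -0.26 (adjusted p = 0.939). Between P3 and P28 the difference was 1.34 (adjusted p = 0.374, edgeR). Pig 6 of P3, the highest of its age, moved both comparisons of P3 with older hearts: without it the difference was 2.40 from P3 to P28 (adjusted p = 0.185) and -0.45 from P3 to P7 (adjusted p = 0.838), and from P1 to P3 it was -2.65 (adjusted p = 0.222). Without pig 5 or pig 6 of P1 the difference from P1 to P28 was -0.81 or -0.72, and without pig 5 or pig 6 of P28 it was -0.58 or -0.005, none of them called. With the replicate number as a block it was 0.30 (adjusted p = 0.893, edgeR).

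For P7 against P28 the adjusted p was 0.00895 without pig 4 of P1, at a difference of 2.86, and 0.0289 without pig 5 of P1, and with only the libraries of P7 and P28 in the fit the difference was 2.84 (adjusted p = 6.43e-04, edgeR). The test across all ages gave F = 3.43 (adjusted p = 0.134, edgeR), which became an adjusted p of 0.0176 without pig 4 of P1 and 0.0361 without pig 5 of P1.

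**Figure D2:**
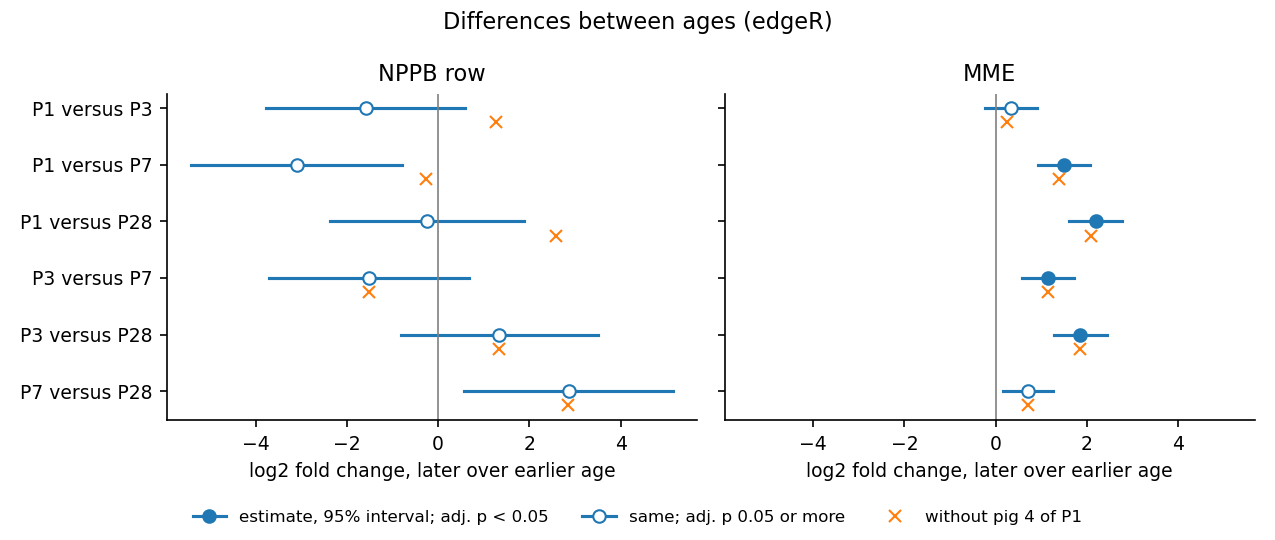
Log2 fold change of the later over the earlier age for the 6 pairs of ages, with 95% intervals from edgeR, for the NPPB row and MME; filled circles have an adjusted p under 0.05 and crosses give the value without pig 4 of P1. MME intervals are narrow and 4 pairs are called, while no pair is called for the NPPB row, whose values in the 3 pairs with P1 shift by over 2 log2 units when that pig is left out.

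Per kilobase of exon, the NPPB row was above MME in every heart. Mean levels per length of the NPPB row were 563 CPM per kilobase at P1, 187 at P3, 65.5 at P7 and 476 at P28. Those of MME were 2.16, 2.73, 6.06 and 9.87 CPM per kilobase. By mean CPM the NPPB row ranked 224 and MME 2719 of the genes tested.

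Peptide counts were set against peptidase counts within each heart, as a ratio of NPPB row counts to MME counts, which needs no scaling between libraries. At P1 the ratios were 220.8, 2.92 and 17.8 in pigs 4, 5 and 6. At P3 they were 10.6, 8.56 and 31.9. The P7 hearts had the ratios 1.76, 4.09 and 3.18. At P28 they were 10.01, 15.5 and 12.9, all above P7 and within the range of P3.

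The median ratio was thus 17.8 at P1, 10.6 at P3, 3.18 at P7 and 12.9 at P28, with no test, since the ratio combines values already tested. At P7 the NPPB row was low while MME was already above its level at P1 and P3. By P28 both were above most of the P7 values. The highest and lowest pig of an age differed 75.6-fold in the ratio at P1 and 1.55-fold at P28.

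**Figure D3:**
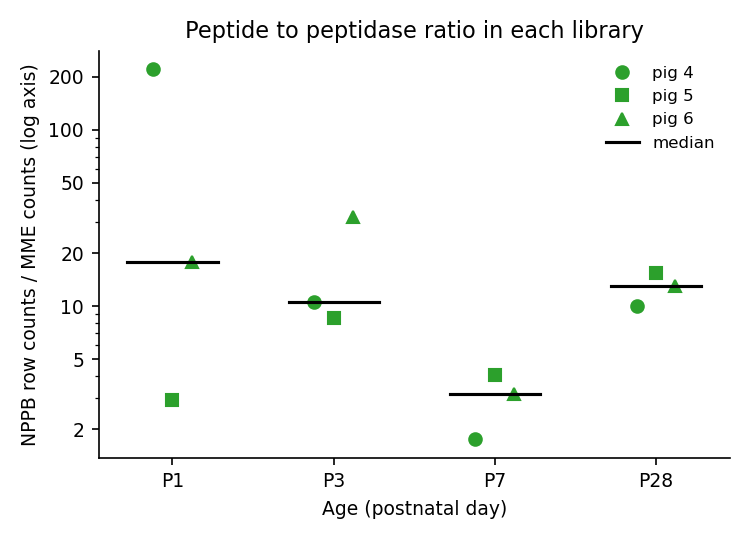
Counts of the NPPB row divided by counts of MME (log axis) in each of the 12 libraries by postnatal day, with a line at the median of each age. The P7 hearts lie between 1.76 and 4.09, the P28 hearts between 10.01 and 15.5, and the P1 hearts spread from 2.92 to 220.8.

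Cell type markers bear on where the RNA came from. Of 19 atrial markers 4 were on the chromosomes of the table, namely DKK3, HAMP, SBK2 and COMP, and of these COMP was under the filter and HAMP did not exceed 2.13 CPM. None of the 3 tested was called in any pair of ages, beside 29.5% of all genes called in some pair. Their summed level was 304 to 704 CPM at P1, 344 to 753 at P3, 284 to 379 at P7 and 197 to 444 at P28. In pig 4 of P1, with the highest NPPB row, DKK3 had 290.6 CPM against 523 and 670.2 in the other P1 pigs, and SBK2 had 12.3 CPM against 28.9 and 33.3, so both were lowest in that pig, whereas HAMP was highest there, at 1.34 CPM against 0.576 and 0.412. The defining atrial genes MYL7, MYL4 and SLN were not analysed here.

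Of 10 ventricular markers 5 were measured, among them MYL3, the ventricular essential light chain, at 10462 to 17597 CPM in all 12 hearts. Their summed level was 11322 to 12410 CPM at P1, lowest in pig 4, 12691 to 18053 at P3, 10733 to 12279 at P7 and 12056 to 14066 at P28. Within P1, MYL3, IRX3 and PRDM16 were lowest in pig 4 and IRX5 and HEY2 were highest there. HEY2, a ventricular repressor, had 349 CPM in pig 4 of P1 against 187 and 174 in the other P1 pigs, and was called in no pair of ages. TNNT1, a slow skeletal troponin active in immature hearts, was the 1 measured gene of a list of 9 fetal sarcomere genes. It had 228, 80.2 and 150 CPM in pigs 4, 5 and 6 of P1. It was called in no pair either.

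Neprilysin is also known as CD10, a surface antigen of neutrophils, lymphoid precursors and some stromal cells, and the summed level of leukocyte markers was highest at P28. Of 16 such markers 4 were measured, and their summed level was 141 to 202 CPM at P1, 152 to 216 at P3, 183 to 208 at P7 and 234 to 350 at P28. CSF3R, the neutrophil growth factor receptor, was the 1 of 4 called from P1 to P28, where 7.38% of all genes were called higher. It rose by 1.41 (SE 0.43, adjusted p = 0.0415, edgeR), with levels of 1.57 to 1.94 CPM at P1 and 2.66 to 6.90 CPM at P28. CSF1R, the macrophage growth factor receptor, differed by 0.67 (adjusted p = 0.0539, edgeR), and CD14 and LAPTM5 were not called either. No leukocyte marker was called in any other pair, including the other pairs in which MME was called higher. In pig 6 of P28, whose MME was low, CSF3R had 2.66 CPM against 6.90 and 4.36 in pigs 4 and 5.

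Among fibroblast markers, 3 of 6 measured fell from P1 to P28, over which MME rose, and 7.93% of all genes were called lower in that comparison. Their summed level over 6 measured genes was 5946 to 6283 CPM at P1, 3855 to 6620 at P3, 6395 to 7099 at P7 and 2180 to 2855 at P28. COL12A1, TCF21 and FBN1 fell from P1 to P28, and the other 3 were not called. Of the 6, only COL15A1 was called from P1 to P7, rising by 0.72 (adjusted p = 0.0441, edgeR). Only FBN1 was called from P3 to P7, rising by 0.70 (adjusted p = 0.0379, edgeR). In these pairs 1.47% and 1.61% of all genes were called higher, MME among them. Means of COL12A1 and TCF21 were lower at P7 than at P1, while those of COL5A1, FBN1 and MMP2 were higher. Without 1 of the libraries, as few as 0 genes of the marker and pathway lists were called in either pair. All 3 epicardial markers measured, TBX18, ALDH1A2 and UPK1B, fell from P1 to P28. None of them was called from P1 to P7 or from P3 to P7. Of 7 endothelial markers measured, TEK, a receptor of vessel growth factors, rose by 0.53 from P1 to P28 (adjusted p = 0.0356, edgeR), CDH11 fell and the other 5 were not called.

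Among the 8 cardiomyocyte markers measured, CKM and MYBPC3 rose from P1 to P28 and ACTC1 fell, beside 15.3% of all genes called. CKM, muscle creatine kinase, had means of 4134 CPM at P1 and 12058 CPM at P28, a rise of 1.54 (SE 0.33, adjusted p = 0.00885, edgeR). From P7 to P28, 4 of the 8, TNNC1, TNNI3, CKM and MYBPC3, rose, where 18.8% of all genes were called. Summed, the 8 markers had 79245 to 91140 CPM at P1, 72869 to 86185 at P3, 68308 to 76438 at P7 and 85587 to 96123 at P28. The part of any of these cell types in the values of MME or of the NPPB row was not tested.

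Pathway genes were described from 6 lists of peptide processing, receptors, cyclic GMP signalling, peptide-degrading enzymes, vasoactive peptides and regulators of the peptide genes. Of the genes listed, 30 that are not members were on the chromosomes measured and passed the filter. From P1 to P28, 4 rose and 2 fell, which is 20% against 15.3% of all genes. From P3 to P28, 5 rose and 2 fell (23.3% against 16.5%), and from P7 to P28, 5 rose and 4 fell (30% against 18.8%). From P1 to P7, 1 rose (3.33% against 2.01%), and between P1 and P3 and between P3 and P7 none was called. Their median log2 difference was -0.12 from P1 to P28, beside 0.004 over all genes tested.

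Processing enzymes were led by the proprotein convertases. PCSK6, which activates the natriuretic peptide convertase corin, had 166, 173 and 179 CPM at P1, 180, 207 and 194 at P3, 260, 289 and 233 at P7, and 233, 276 and 256 at P28. It rose by 0.59 from P1 to P7 (SE 0.12, adjusted p = 0.0297, edgeR) and by 0.56 from P1 to P28 (SE 0.12, adjusted p = 0.00761, edgeR). The call from P1 to P7 was not stable: without pig 4, 5 or 6 of P1, or pig 4 or 5 of P7, none of the pathway or marker genes was called in that pair. PCSK5, a related convertase, had 40.3 to 46.8 CPM at P1 and 78.3 to 86.9 CPM at P28, and rose by 0.95 (SE 0.18, adjusted p = 0.00446, edgeR). Its level at P7, 39.0 to 54.5 CPM, was lower than at P28 by 0.87 (adjusted p = 0.00532, edgeR). GALNT1, a glycosyltransferase that can modify the peptide precursors, was called in no pair. OSTN, a secreted ligand of the clearance receptor, fell by 3.98 from P7 to P28 (SE 0.99, adjusted p = 0.0148, edgeR), from 1.17, 2.13 and 9.32 CPM to at most 0.401 CPM, which is 5 counts.

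Of the receptors, NPR2, which binds C-type natriuretic peptide, was the 1 measured gene of 3, at 82.3 to 86.3 CPM at P1, 73.2 to 135 at P3, 95.6 to 108 at P7 and 75.8 to 95.3 at P28. It was called in no pair, and its difference from P1 to P28 was 0.007 (SE 0.19). NPR1 and NPR3 were not analysed here. Among cyclic GMP genes, the phosphodiesterases PDE9A and PDE10A and the kinase substrate VASP were measured, of 22 on the list, and none was called in any pair, beside 29.5% of all genes.

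Of the other peptide-degrading enzymes tested, none was called higher at any later age and 1 of 4 fell in some pair, beside 29.5% of all genes called in some pair. ECE1, which makes endothelin and cuts several peptides, had 203, 189 and 221 CPM at P28 against 292, 225 and 254 at P1, a difference of -0.33 (SE 0.20, adjusted p = 0.286, edgeR). The dipeptidyl peptidase gene DPP8 differed by -0.41 (adjusted p = 0.0681, edgeR) and the oligopeptidase THOP1 by 0.02 (adjusted p = 0.924, edgeR). PREP, a prolyl endopeptidase, fell from 164, 194 and 167 CPM at P1 to 133, 98.6 and 91.5 CPM at P28, by 0.70 on the log2 scale (SE 0.15, adjusted p = 0.00800, edgeR). MMEL1, the nearest relative of neprilysin, did not exceed 3 counts in any library, and MEP1B did not exceed 7.

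Of the 3 vasoactive genes tested, 2 rose from P1 to P28 and 1 was not called, beside 7.38% of all genes called higher. AGTR1, the angiotensin II receptor, had 28.3, 42.8 and 39.9 CPM at P1 and 59.9, 72.9 and 53.1 CPM at P28, a rise of 0.74 (SE 0.19, adjusted p = 0.0207, edgeR). VIPR1, a receptor of vasoactive intestinal peptide, rose by 1.11 (SE 0.31, adjusted p = 0.0317, edgeR), from 4.37 to 6.49 CPM at P1 to 8.73 to 16.5 CPM at P28. Adrenomedullin (ADM) is a vasodilator peptide and neprilysin substrate. Its gene had 58.0 CPM in pig 4 of P1 against 18.4 and 27.2 in pigs 5 and 6, and was called in no pair. EDN2, MAS1 and UTS2 were under the filter, and VIP and KNG1 had no count in any library.

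Of 49 regulators of the peptide genes on the list 15 were measured, and 4 of these were called in some pair of ages, beside 29.5% of all genes tested. GATA6, a cardiac zinc finger factor of the GATA family that acts on peptide gene promoters, had 743, 421 and 460 CPM at P1, 420, 460 and 403 at P7 and 904, 791 and 760 at P28. It rose by 0.94 from P7 to P28 (SE 0.20, adjusted p = 0.00756, edgeR) and by 0.76 from P3 to P28 (adjusted p = 0.0247), and was highest among the P1 hearts in pig 4. TBX18, a T-box repressor that also marks the epicardium, fell by 0.83 from P1 to P28 (SE 0.15, adjusted p = 0.00390, edgeR). From P7 to P28, IRX3 rose by 0.88 (adjusted p = 0.0190, edgeR) and the histone deacetylase gene HDAC1 fell by 0.45 (adjusted p = 0.0268, edgeR). The other 11 regulators tested, among them MEF2A, TEAD1 and NFATC1, were called in no pair.

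**Figure D4:**
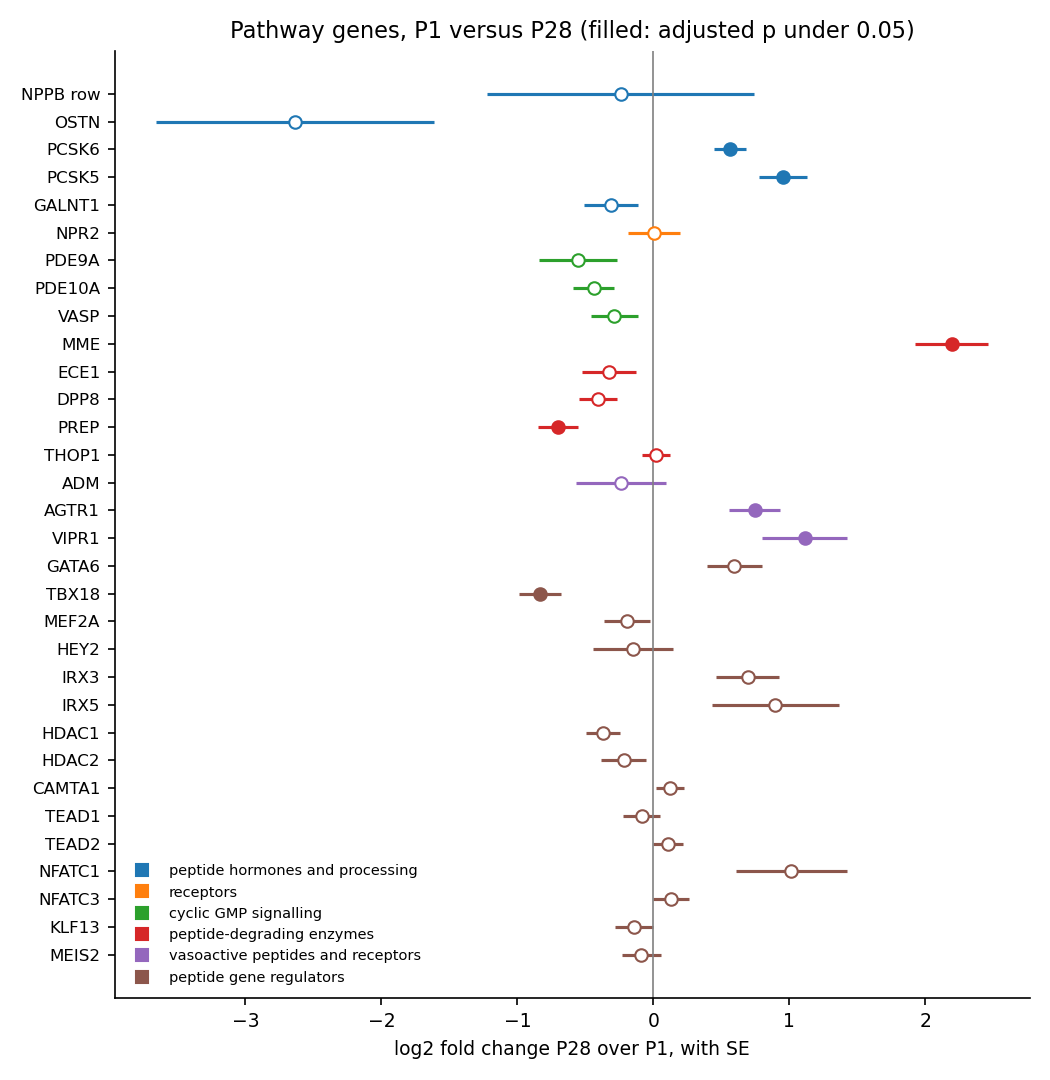
Log2 fold change of P28 over P1 with its SE (edgeR) for the tested genes of the 6 pathway lists and the members, coloured by list and filled where the adjusted p is under 0.05. MME, at 2.19, is farthest to the right, and the NPPB row, at -0.24, has an SE of 0.98.

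Neighbouring genes of the NPPB row that were tested had narrower ranges. Within 200 kb on either side lie 13 other genes, of which 10 were tested. Over the 12 hearts the highest level was 50.7 times the lowest for the NPPB row. In the adjacent CLCN6, a chloride transporter gene, it was 2.73 times. The widest neighbour was a U5 small nuclear RNA with 10.8 times, on at most 27 counts per library. CLCN6 was called in no pair, while 5 of the 10 were called in at least 1, beside 29.5% of all genes tested, such as PLOD1, a collagen lysyl hydroxylase gene, which fell by 1.18 from P1 to P28 (SE 0.14, adjusted p = 3.16e-04, edgeR). Near MME 5 genes lie within 200 kb and 1 was tested, the phospholipase gene PLCH1, which fell by 2.22 from P7 to P28 (SE 0.60, adjusted p = 0.0219, edgeR). Its means were 1.99 CPM at P1, 1.54 at P3, 7.73 at P7 and 1.64 at P28, on at most 140 counts per library. The highest level of PLCH1 was 39.4 times its lowest, against 6.46 times for MME.

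The genes whose log2 CPM followed the members most closely over the 12 libraries were listed by Pearson's r, as a description, since all values share library and depth. For the NPPB row these were RRP9, a ribosomal RNA processing factor, with r = 0.93, the mitochondrial carrier gene SLC25A25 with 0.88, the proteasome subunit gene PSMC3 with 0.86, CORO2A with 0.86 and the stress-responsive repressor gene BHLHE40 with 0.85. Without pig 4 of P1 the same 5 had r of 0.95, 0.93, 0.88, 0.78 and 0.82. Mean levels of BHLHE40 were 77.6 CPM at P7 and 160 CPM at P28, and those of SLC25A25 were 45.9 and 90.8 CPM, given without a test because the genes were chosen on the same values.

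MME was followed most closely by the lncRNA ENSSSCG00000049190 (r = 0.93), the coding gene ENSSSCG00000012049 (0.93), the pseudogene ENSSSCG00000045783 (0.92), ZNF683 (0.91) and the cytokine gene TNFSF15 (0.90). ZNF683, a lymphocyte transcription factor gene, did not exceed 2.01 CPM. TNFSF15 had means of 2.22 CPM at P1 and 11.3 CPM at P28, likewise without a test.

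In cultured cardiomyocytes the study examined miR-128 together with MME, and small RNA libraries of these ages, with columns of the same numbers, hold 2 precursor entries of it. Entry ssc-mir-128-1 had mean levels of 590 ± 94.5 CPM at P1, 558 ± 123 at P3, 504 ± 69.0 at P7 and 560 ± 31.6 at P28 (SD, n = 3 each). Entry ssc-mir-128-2 had 216 ± 42.2, 229 ± 74.7, 221 ± 32.2 and 216 ± 6.47 CPM. Neither was called in any of the 6 pairs (adjusted p from 0.367 to 0.998, edgeR), where the share of the 305 tested entries that was called was 6.56% from P1 to P3, 30.8% from P1 to P7, 42% from P1 to P28, 18% from P3 to P7, 22.3% from P3 to P28 and 29.2% from P7 to P28. Between P1 and P28, over which MME rose, the entries differed by -0.07 (SE 0.18) and 0.001 (SE 0.21).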

How the data were processed

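For 12 heart libraries of batch cd, raw read counts by gene were deposited, not normalized. For 12 small RNA libraries the authors deposited expected counts, with an entry for each mature miRNA of a precursor. The labels' processing notes name STAR 2.7.9a, MultiQC 1.11 and build Sscrofa10.2, and the paper names a stranded total RNA kit, while the gene counter, its strand setting and annotation are not given in the sources used here. The last row, without counts, was left out. Circular RNA tables give no host genes and were not used here.

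Analyses ran in R 4.3.3 with DESeq2 1.42.0, edgeR 4.0.16 and limma 3.58.1, and plots in matplotlib 3.10.9. A gene entered the quasi-likelihood test of edgeR, with TMM scaling and the 4 ages in a single fit, if 3 or more of the 12 libraries had 10 or more counts, and p-values were adjusted over all 5526 genes tested. Expected counts were rounded to whole numbers and handled likewise (305 of 486 entries, totals 2921128 to 7917259). The log2 CPM used a prior count of 2. Intervals are 95% intervals of the fit. The planned tests of NPPA could not be made. The 66 tested genes of the pathway and marker lists enter the counts of list genes.

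Named genes were the members, pathway genes called in some pair, receptors and degrading enzymes, genes within 200 kb of a member (1 of these is not reported here) and the 5 genes most like each member. Marker genes, EDN2, MAS1, UTS2, VIP, KNG1, GALNT1, the cyclic GMP genes, ADM, MEF2A, TEAD1 and NFATC1 were named after their values were seen. The members and lists were chosen with earlier results of these data known. The procedure was tested on simulated data. Alternatives were DESeq2's size factors, DESeq2's test, no filter, no Metazoa_SRP genes, only the ages compared, the replicate number as a block, the study's thresholds, Spearman's rho and leaving out each library. Pigs with the same number at different ages are different animals, and no label says that a number marks a shared litter or day. The deviations of same-numbered libraries from their age means correlated over 0.1 in all 3 pairs of P1 and P28 (0.33, 0.14 and 0.16), and in 2 of the 15 pairs of the other comparisons. For P1 against P28 the number was therefore treated as a possible pairing.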

Additional observations from a re-analysis of the deposited data

How the results depend on the processing

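The rise of MME from P1 to P28 (2.04 to 2.44 on the log2 scale) and from P3 to P28 (1.70 to 2.10) was called without any one library and under every alternative run. From P3 to P7 it was not called with only the 2 ages compared (1.15, adjusted p = 0.0804) or with the replicate block (1.14, adjusted p = 0.0615), and it was 0.99 to 1.29 without one library. From P1 to P7 it was 1.33 to 1.69 without one library, and from P7 to P28 it was 0.56 to 0.95, with a call by DESeq2 (0.70, adjusted p = 0.0427). Values of MME from P1 to P3 were 0.22 to 0.54. The age effect of MME had adjusted p from 7.84e-04 to 0.00319 without one library, 0.00167 with the replicate block, 1.80e-05 without the filter and 1.91e-15 with DESeq2's test.

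For the NPPB row, P7 against P28 was called with DESeq2's test (2.86, adjusted p = 0.0348), without the filter (2.85, adjusted p = 0.0374) and with only the 2 ages compared (2.84, adjusted p = 6.43e-04), and was 2.54 to 3.10 without one library. The difference from P1 to P28 turned to 0.30 with the replicate block (adjusted p = 0.893) and was -0.81 to 2.59 without one library. Without one library, the row differed by -2.65 to 1.26 from P1 to P3, -3.68 to -0.26 from P1 to P7, -1.88 to -0.45 from P3 to P7 and 0.99 to 2.40 from P3 to P28, and the age effect then had adjusted p from 0.0176 to 0.265. The cause of these changes was not tested.

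Genes called on the pathway and marker lists numbered 0 from P1 to P3, but 2 with DESeq2's test, 1 without the filter, 1 with the replicate block and 8 at the study's thresholds. From P1 to P7 they numbered 2, but 4 with DESeq2's test, 4 with only the 2 ages compared and 5 at the study's thresholds. From P1 to P28 they numbered 17, but 26 with DESeq2's test and 26 with only the 2 ages compared. From P3 to P7 they numbered 1, but 10, 2 and 8 with DESeq2's test, no filter and the study's thresholds. From P3 to P28 they numbered 18, but 10 with only the 2 ages compared, and from P7 to P28 they numbered 23. Leaving out one library gave 0 to 4 from P1 to P7, 9 to 29 from P1 to P28, 0 to 3 from P3 to P7, 11 to 22 from P3 to P28 and 15 to 32 from P7 to P28.

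Without the filter, ssc-mir-128-2 turned to -0.060 from P1 to P28 and to 0.040 from P3 to P7. Without one library, ssc-mir-128-1 lay between -0.25 and 0.059 from P1 to P3, -0.32 and -0.07 from P1 to P7, -0.13 and 0.065 from P1 to P28, -0.19 and 0.074 from P3 to P7, -0.011 and 0.17 from P3 to P28 and 0.05 and 0.30 from P7 to P28. For ssc-mir-128-2 the ranges, in the same order, were -0.20 to 0.23, -0.11 to 0.20, -0.14 to 0.14, -0.12 to 0.24, -0.13 to 0.20 and -0.14 to 0.074. Ranked by Spearman's rho, 2 of the 5 genes most like the NPPB row and 3 of the 5 most like MME stayed among the first 5.

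With the replicate block the calls over all genes went from 846 to 784 from P1 to P28, from 122 to 77 from P3 to P7 and from 3 to 7 from P1 to P3. DESeq2 called 122, 364, 1089, 364, 1187 and 1294 genes from P1 to P3, P1 to P7, P1 to P28, P3 to P7, P3 to P28 and P7 to P28, against 3, 111, 846, 122, 911 and 1040 with edgeR.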
